A study of Mus musculus with 4 samples.

Results

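The genes described here encode the nuclear subunits of the oxidative phosphorylation (OXPHOS) complexes of mitochondria. They were chosen by symbol alone: Ndufa, Ndufb, Ndufc, Ndufs and Ndufv genes for complex I, Sdha to Sdhd for complex II, Uqcr genes and Cyc1 for complex III, Cox4i, Cox5, Cox6a, Cox6b, Cox6c, Cox7 and Cox8 genes for complex IV, and Atp5 genes for complex V. Of the 19491 genes listed in any library, 83 met the rule, and these members comprise 38 genes of complex I, 4 of complex II, 9 of complex III, 16 of complex IV and 16 of complex V. Cox8b was listed in the injured libraries only, so 82 members were listed in all 4 libraries. A few members do not do what the complex of their symbol says: Ndufa4 is a subunit of complex IV, Cox7a2l is a factor of respiratory supercomplexes, and Atp5s is not a subunit of ATP synthase.

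CD45+ hematopoietic cells were sorted by FACS from the brain or the dura mater of 8-week-old C57BL/6J mice, either controls (S3) or on day 3 after photothrombotic injury (PTI; D3), in which light-activated dye clots vessels of the dura mater, pia mater and brain. The control libraries carry the label CT and are treated here as the sham group of day 3, so age, strain, day and sort are shared by all groups. Single cells were sequenced with 10x Chromium 3′ chemistry, and each condition has 1 library, with the number of mice in it not given. With 1 library per group no difference can be set against the spread between mice, no test was made, and every interval is a 95% interval that covers counting error only.

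Complexes I to IV pass electrons from NADH and succinate to oxygen. Complexes I, III and IV also pump protons, and complex V, the ATP synthase, makes ATP from the proton gradient. Most subunits are encoded in the nucleus, whereas 13 core subunits are encoded by mitochondrial DNA, so both genomes supply each complex except complex II. Neutrophils are known to hold few mitochondria and to rely on glycolysis, while proliferating precursors and plasmacytoid dendritic cells (DCs) are known for active mitochondrial metabolism.

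After filtering, 3618 cells of the S3 brain, 4437 of the D3 brain, 3439 of the S3 dura mater and 2609 of the D3 dura mater were kept, with 37488924, 72352215, 41664879 and 40616838 unique molecular identifiers (UMIs), the count of tagged RNA molecules. The median cell held 8249 and 9307 UMIs in the S3 brain and dura mater, but 14271 and 14156 in the D3 libraries. Pairs of libraries shared 3 to 11 cell barcodes. Cells were put into 18 immune classes by the levels of marker genes, none of which is a member, and 82.0 to 85.8% of kept cells received a class. These are called "-like" because the gate is made from markers, and 10.7 to 16.4% of the cells of a library lay near a cut of the gate. Each class was led by genes of its own type with exceptions: the leading genes of the granulocyte precursor gate included the basophil genes Mcpt8 and Prss34, and those of the gate for group 2 innate lymphoid cells (ILC2) included the globin gene Hbb-bt. The values below are shares of the summed UMIs of a class, in which deep cells weigh more than shallow ones.

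Sequences before the start sites of 5 members are shown because they carry the contrasts that follow. Cox7a1 and Cox7a2 encode alternative forms of one complex IV subunit, with Cox7a2 in every class and Cox7a1 in few cells. Atp5g2, which encodes the c subunit of ATP synthase, and Ndufa11, an accessory subunit of complex I, are among the members that varied most between classes, and Sdhb, the iron-sulfur subunit of complex II, was among those furthest apart between infiltrating and border macrophage-like cells. Each sequence is the 150 bases before the RefSeq start in GRCm38.p6, 5′ to 3′ on the strand of the gene, with capitals for matches to the motifs given next.
Cox7a1 (chr7:30184021-30184170, plus strand): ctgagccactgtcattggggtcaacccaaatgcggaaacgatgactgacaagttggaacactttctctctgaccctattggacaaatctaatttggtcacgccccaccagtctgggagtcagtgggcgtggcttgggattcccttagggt
Cox7a2 (chr9:79759854-79760003, minus strand): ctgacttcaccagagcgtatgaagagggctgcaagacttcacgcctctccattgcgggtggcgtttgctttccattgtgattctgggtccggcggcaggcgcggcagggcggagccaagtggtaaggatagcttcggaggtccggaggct
Atp5g2 (chr15:102671048-102671197, minus strand): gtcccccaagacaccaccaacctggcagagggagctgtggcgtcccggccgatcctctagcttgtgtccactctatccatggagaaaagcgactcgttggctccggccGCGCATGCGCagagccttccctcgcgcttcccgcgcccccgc
Ndufa11 (chr17:56717612-56717761, plus strand): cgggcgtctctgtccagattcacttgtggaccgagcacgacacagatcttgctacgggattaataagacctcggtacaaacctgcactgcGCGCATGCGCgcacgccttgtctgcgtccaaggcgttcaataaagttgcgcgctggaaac
Sdhb (chr4:140961121-140961270, plus strand): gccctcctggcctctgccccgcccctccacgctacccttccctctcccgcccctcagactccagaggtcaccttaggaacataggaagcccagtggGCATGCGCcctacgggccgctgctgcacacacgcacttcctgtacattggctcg

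The capitals mark the NRF1 motif GCGCATGC on either strand, which in Atp5g2 and Ndufa11 overlaps its match on the opposite strand and in Sdhb lies on the opposite strand only. Cox7a1 and Cox7a2 hold no match in these windows. RefSeq promoters of 300 bases, 250 before and 50 after the start, were at hand for 65 of the 83 members. Of these, 10 (15.4%) held GCGCATGC, compared with 2.80% of 27025 promoters of all genes. The YY1 motif AAGATGGCG was in 6 members (9.23%) and in 1.49% of all promoters, each time after the start on the strand of the gene. The ETS/GABPA motif CCGGAAGT was in 5 members (7.69% against 4.0%) and the ERR motif TNAAGGTCA in 3 (4.62% against 1.26%). NRF1, YY1, GABPA and ERR proteins are known regulators of nuclear OXPHOS genes, and a match here is a string of letters only. Member promoters had a median of 19 CpG dinucleotides, all promoters 7, Cox7a2 20, Cox7a1 7 and Cox8b 2.

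The members covered a wide range of levels in every complex. Levels are counts scaled to 1000000 UMIs (CPM) over all classed cells, not divided by transcript length because the assay tags 1 end of each molecule. In complex IV, Cox4i1, a core regulatory subunit, was highest with 743 CPM, and Cox4i2, its alternative form known from hypoxic and lung cells, was lowest among its members with at least 100 UMIs, with 1.12 CPM. Complex V ranged from Atp5e, the epsilon subunit, at 577 CPM to Atp5s at 4.12 CPM. Complex III ranged from Uqcrh, the hinge protein, at 432 CPM to Cyc1, cytochrome c1, at 91.5 CPM. Complex I ranged from Ndufa13 at 320 CPM to Ndufa4l2 at 0.978 CPM, and the lowest complex I member after Ndufa4l2 was Ndufs1, its largest iron-sulfur subunit, at 29.5 CPM. Complex II ranged from Sdhb at 124 CPM to Sdhc at 52.4 CPM. Only Cox8b, with 1 UMI, fell under 100 UMIs, and the members together held 2595672 UMIs of the classed cells.

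The immune classes differed in summed OXPHOS level, with the same class lowest throughout. Mature neutrophil-like cells were lowest in each of the 4 libraries, with 0.888% of UMIs in the S3 brain, 1.09% in the D3 brain, 0.772% in the S3 dura mater and 0.832% in the D3 dura mater. Granulocyte precursor-like cells were highest in the dura mater, with 2.49% (2.46 to 2.51) at S3 and 2.47% (2.44 to 2.51) at D3. In the brain libraries, where too few precursors were found, plasmacytoid DC-like cells were highest, with 2.16% (2.10 to 2.21) at S3 and 2.09% (2.03 to 2.14) at D3. These were 20 and 21 cells, and the D3 interval overlapped that of NK/ILC1-like cells (1.982 to 2.045). A single gene, Cox6a2, weighed on this rank. With it complex IV was at 0.694% and 0.669% of their UMIs at S3 and D3, and without it at 0.520% and 0.490%. The order of the classes without Cox6a2 was not computed. The highest class exceeded the lowest 2.43-fold in the S3 brain, 3.22-fold in the S3 dura mater, 1.91-fold in the D3 brain and 2.97-fold in the D3 dura mater.

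Ly6C hi monocyte-like cells, the inflammatory monocytes of blood, held 2.01%, 2.0%, 2.13% and 2.19% in the S3 brain, D3 brain, S3 dura mater and D3 dura mater. NK/ILC1-like cells held 1.99%, 2.01%, 2.14% and 2.17% in the same order, and the intervals of these classes overlapped each other in all 4 libraries. In the middle were T cell-like cells (1.68 to 1.83%), type 1 conventional DC (cDC1)-like cells (1.80 to 1.83%), cDC2-like cells (1.57 to 1.76%) and ILC2-like cells (1.59 to 1.60%), with migratory DC-like cells of the D3 brain at 1.64%. B cell-like cells held 1.39 to 1.63%, Ly6C low monocyte-like cells, which patrol vessels, 1.39 to 1.58%, and border macrophage-like cells, which reside in meninges and perivascular spaces, 1.34 to 1.46%. Mast cell-like cells of the dura mater (1.11% and 1.14%) and immature neutrophil-like cells (1.05 to 1.17%) were low. B cell precursor-like cells of the dura mater, 266 at S3 and 25 at D3, held 2.20% and 2.31%. The more mature B cell-like cells of the same libraries held 1.63% and 1.61%. The gap was smaller for the median cell, with 1.94% and 1.62% in B cell precursor-like and 1.46% and 1.5% in B cell-like cells. Proliferation markers were carried by 38.7% and 36% of the B cell precursor-like cells and by 2.99% and 1.61% of the B cell-like cells.

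**Figure D1:**
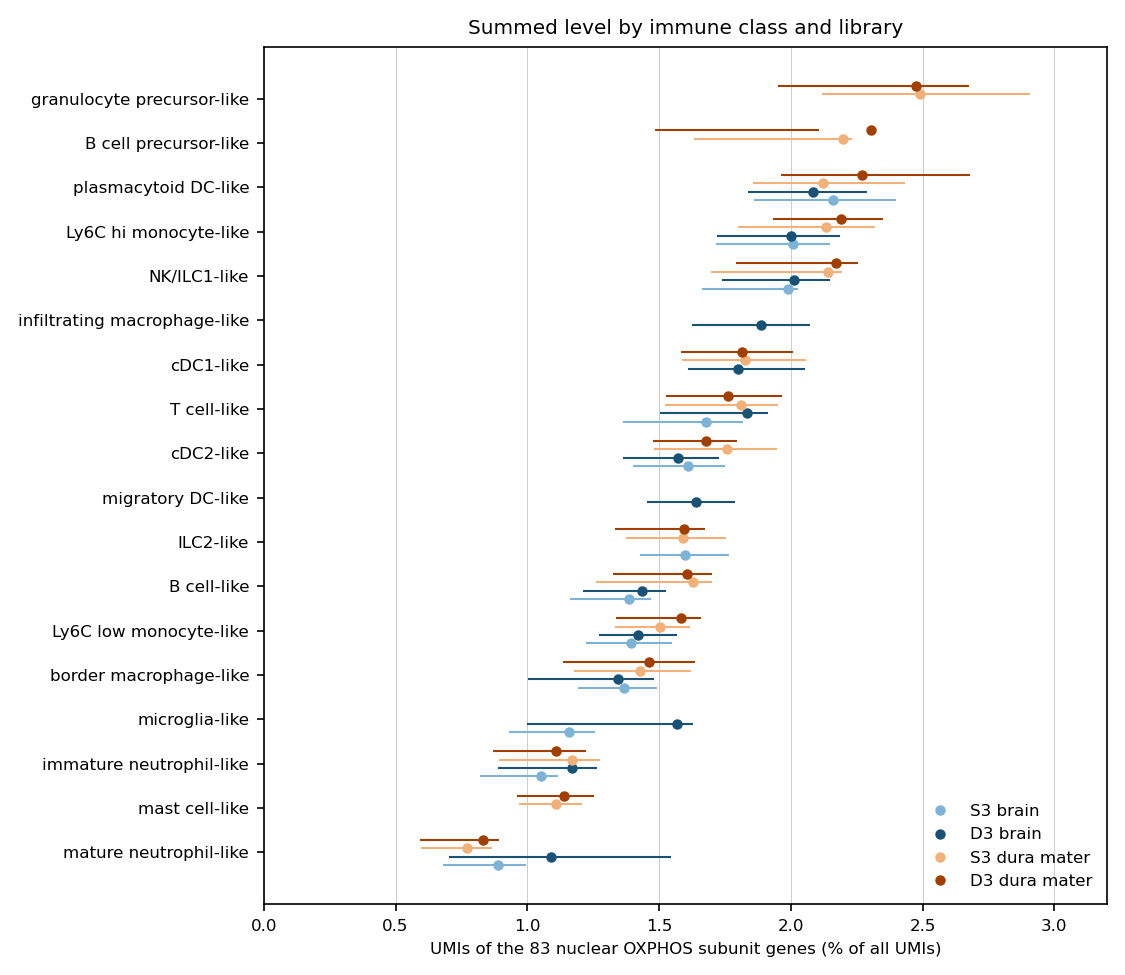
Summed level of the 83 members as a percentage of all UMIs (horizontal axis) for each immune class and library with at least 20 cells. Points are the value of the summed cells and bars the quartiles of single cells. Mature neutrophil-like cells lay lowest in all 4 libraries and granulocyte precursor-like cells highest in the dura mater, while the point of microglia-like cells of the D3 brain (1.57%) lay above the median cell (1.24%).

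The complexes held similar shares of member UMIs in most classes. Complex I made up 25.9 to 33.9% of member UMIs over the 56 combinations of class and library with at least 20 cells, and complex IV 24.7 to 32.1%. The highest complex IV shares were those of plasmacytoid DC-like cells, 31.2 to 32.1%, and migratory DC-like cells, 31.2%. Complex IV reached 0.662 to 0.710% of all UMIs of plasmacytoid DC-like cells. Members with the largest difference between the highest and lowest class, over classes of at least 50 cells, all had mature neutrophil-like cells as the lowest class. In the S3 dura mater these were Atp5g2 (597 CPM in B cell precursor-like against 49.9 CPM in mature neutrophil-like cells, 12-fold), Ndufb5 (11.9-fold), Ndufa11 (11.5-fold), Ndufa9 (10.9-fold) and Ndufa10 (10.2-fold). In the S3 brain they were Ndufa11 (7.75-fold), Atp5g1 (7.66-fold), Atp5g2 (7.42-fold), Ndufa5 (7.27-fold) and Ndufc2 (7.07-fold). The median member differed 3.90-fold between classes in the S3 dura mater, 3.00-fold in the S3 brain, 2.46-fold in the D3 brain and 3.25-fold in the D3 dura mater. The classes with at least 50 cells were not the same in each library, so these folds cannot be compared between libraries. B cell precursor-like cells of the dura mater, for example, entered with 266 cells at S3 but were left out with 25 cells at D3.

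The mitochondrially encoded subunits and the nuclear ones were both low in mature neutrophil-like cells, with 0.735 to 1.43% of UMIs from the mitochondrial genes. Both were high in plasmacytoid DC-like cells, with 5.41 to 5.91% from the mitochondrial genes. Granulocyte precursor-like cells, highest in nuclear level in the dura mater, held 4.42% and 4.36% from the mitochondrial genes at S3 and D3. B cell-like cells (5.94% and 5.96%) and T cell-like cells (4.90% and 4.95%) of the same libraries held more. Other classes had unequal levels. B cell-like cells held 5.57 to 5.96% of UMIs from the 13 mitochondrial genes with a nuclear level of 1.39 to 1.63%, whereas Ly6C hi monocyte-like cells held 3.15 to 3.80% with a nuclear level of 2.0 to 2.19%. The number of nuclear member UMIs for each mitochondrially encoded UMI ranged from 0.241, in B cell-like cells of the S3 brain and mast cell-like cells of the S3 dura mater, to 1.05 in mature neutrophil-like cells of the S3 dura mater. In infiltrating macrophage-like cells this number was 0.699, compared with 0.360 and 0.322 in border macrophage-like cells of the S3 and D3 brain. Cells with more than 7% mitochondrial UMIs had been removed, which limits the mitochondrial side of this ratio.

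Neutrophil stages showed the largest differences of the members. Granulocyte precursor-like cells of the S3 dura mater held 2.49% and mature neutrophil-like cells 0.772%, a log2 ratio of 1.69 (1.66 to 1.71). Of 77 members tested, a word used here for genes whose UMIs over the compared groups sum to 50 or more, 72 (93.5%) were at least 1.5-fold higher in the precursors, beside 44.2% of the 5836 genes tested, and 0 were as much lower, beside 35%. The members had a median log2 ratio of 1.96, all genes 0.23. In cells thinned to 2000 UMIs, where 10 members kept enough UMIs, 8 were higher (80%), beside 25.1% of 621 genes. In the D3 dura mater the same log2 ratio was 1.57 (1.54 to 1.60). The precursors numbered 47 and 23 cells, of which 70.2% and 91.3% carried proliferation markers, compared with none of the mature cells of either library.

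Among members with at least 100 UMIs, Atp5g1, which encodes the same c subunit as Atp5g2, was measured at 518 CPM in precursors and 33.3 CPM in mature neutrophil-like cells of the S3 dura mater, a log2 ratio of 3.95 (3.61 to 4.33). Ndufab1, the mitochondrial acyl carrier protein of complex I, was at 252 and 17.1 CPM (3.87), Ndufb5 at 292 and 20.2 CPM (3.84), Atp5g2 at 617 and 49.9 CPM (3.62) and Ndufa10 at 118 and 9.89 CPM (3.55). At the other end, Atp5l, the g subunit of ATP synthase, was at 536 and 475 CPM (0.17), Ndufa7 at 248.7 and 187 CPM (0.41), Ndufa3 at 227 and 162 CPM (0.49), Cox7a2l at 229.5 and 158 CPM (0.54) and Ndufa13 at 322 and 220 CPM (0.55). By complex the ratio was largest for complex III (1.86) and smallest for complex II (1.17).

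Other lists of the pathway differed between precursors and mature cells too, in unequal amounts. All 12 tested mitochondrially encoded subunits were at least 1.5-fold higher in the precursors (median log2 ratio 2.82), as were 66 of 68 genes of the mitochondrial ribosome (3.01, with 1 lower), 12 of 14 genes of the tricarboxylic acid cycle (2.16) and 12 of 16 assembly factors (1.55, with 1 lower). Ribosomal protein genes were higher in 86 of 91 and lower in 2, with a median of 2.92. Cycs, which encodes cytochrome c, had a log2 ratio of 3.13. Of 14 glycolysis genes 9 were higher and 1 lower, with a median of 0.70, Gapdh at 0.96 and Pkm, pyruvate kinase, at -0.22.

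In summed level, immature neutrophil-like cells of the dura mater lay between these stages. In the S3 dura mater their summed level was 1.17% and 0.60 (0.57 to 0.62) above mature cells on the log2 scale, with 49 of 78 members (62.8%) at least 1.5-fold higher, beside 31.5% of the 7051 genes tested, and 1 member lower, beside 28.6%. The same log2 ratio was 0.25 in the S3 brain, 0.10 in the D3 brain and 0.41 in the D3 dura mater. That of the D3 brain, where 40.9% of the immature cells carried proliferation markers, turned to -0.10 in cells thinned to 2000 UMIs and to -0.095 without cycling cells. Ndufa11 (79.6 against 19.3 CPM, log2 ratio 2.03), Ndufa10 (2.02), Cyc1 (1.98), Uqcrb (1.91), a subunit near the quinone site of complex III, and Ndufb5 (1.85) were furthest above the median among members with at least 100 UMIs. Ndufa7 (118 against 187 CPM, -0.67), Cox7a2l (-0.52), Atp5l (-0.43), Sdha (-0.19) and Sdhd (-0.15) were furthest below. The summed complex II ratio was 0.11 (-0.05 to 0.28), compared with 0.77 for complex I. For complex II it was -0.19 (-0.44 to 0.05) in the S3 brain, -0.25 (-0.43 to -0.07) in the D3 brain and -0.29 (-0.46 to -0.13) in the D3 dura mater. Of the immature cells of the S3 dura mater, 32.3% carried proliferation markers. Without those cells the log2 ratio of the summed members was 0.37, with 32 of 76 members (42.1%) higher beside 17.4% of genes. In cells thinned to 2000 UMIs 8 of 24 members (33.3%) were higher, beside 16.4% of genes.

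**Figure D2:**
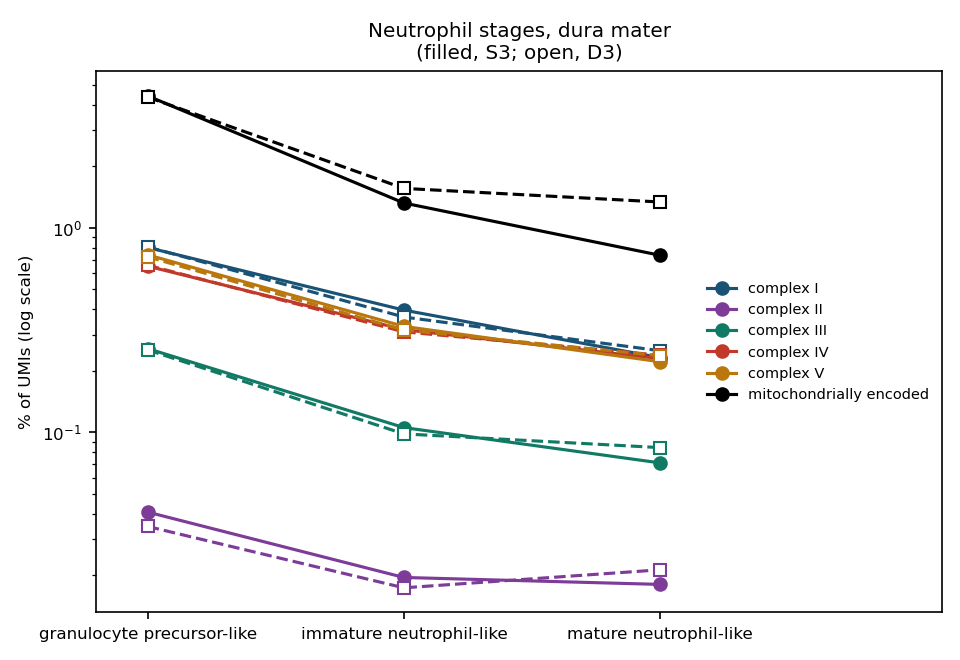
Percentage of UMIs (log scale) from each complex and from the 13 mitochondrially encoded subunits in granulocyte precursor-, immature neutrophil- and mature neutrophil-like cells of the dura mater (filled circles and solid lines, S3; open squares and dashed lines, D3). Every line falls from precursors to immature cells, whereas complex II was higher in mature than in immature cells at D3.

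Within classes, cells with proliferation markers held more member UMIs than the other cells of their class in each of the 12 combinations of class and library with at least 20 cells on both sides. The log2 ratio ranged from 0.15 (0.12 to 0.18) in cDC2-like cells of the S3 dura mater to 0.65 (0.62 to 0.68) in T cell-like cells of the S3 brain, where 23 cycling cells held 2.50% and 728 others 1.59%. Ly6C hi monocyte-like cells held 2.39 to 2.46% in cycling and 1.86 to 2.08% in other cells over the 4 libraries. Microglia-like cells of the D3 brain held 1.99% in 85 cycling and 1.43% in 537 other cells. The cycling cells were also deeper, with a median of 29900 against 8804 UMIs in those microglia-like cells, and the part of depth in the difference was not tested.

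The first question of the design is what differed between the injured and the control brain. Microglia-like cells, the resident macrophages of the brain parenchyma, had a summed OXPHOS level of 1.16% (1.15 to 1.17) in 434 cells at S3 and 1.57% (1.56 to 1.58) in 622 cells at D3, a log2 ratio of 0.44 (0.42 to 0.45). Complexes III, I, V and IV had log2 ratios of 0.39, 0.42, 0.46 and 0.48, and complex II had 0.16. Of 78 members tested, 19 (24.4%) were at least 1.5-fold higher at D3, beside 9.85% of the 10017 genes tested, and 1 was as much lower, beside 14.6%. Without cycling cells 5 were higher (6.41%, beside 6.61% of genes), and in cells thinned to 2000 UMIs 2 of 54 (3.70%, beside 7.26% of genes), so that both shares were no higher than the background. The median member ratio was 0.41 and that of all genes -0.14, and 74 of 78 members lay above 0, compared with 38.5% of all genes.

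In these cells Cox5a, a complex IV subunit, was measured at 141 CPM at S3 and 271 CPM at D3, a log2 ratio of 0.94 (0.82 to 1.06). Ndufc1 was at 62.9 and 113 CPM (0.84; 0.66 to 1.03), Atp5j, the F6 coupling subunit, at 190.3 and 324 CPM (0.77; 0.66 to 0.87), and Ndufv3 at 84.5 and 143 CPM (0.76; 0.60 to 0.92). Cox6a2, the muscle form of a complex IV subunit, had 4.41 and 10.7 CPM (1.26; 0.61 to 2.02) from 22 and 105 UMIs. Cox4i1 was at 526 and 851 CPM (0.69; 0.63 to 0.76). The lowest members with at least 100 UMIs were Ndufs1 (0.05), Ndufb4 (0.02), Cox7c (-0.01), Ndufa5 (-0.03) and Sdha (-0.13), the flavoprotein of complex II, whose intervals all held 0. The 1 member lower was Atp5s, with 9.21 and 5.41 CPM.

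The microglia-like D3 cells were not uniform in this. The median cell held 1.09% at S3 and 1.24% at D3, a smaller gap than that of the sums. In cells of 4000 to 8000 UMIs the level was 0.981% at S3 and 1.04% at D3, in cells of 8000 to 20000 UMIs 1.15% and 1.32%, and in deeper cells 1.30% and 1.78%. Cycling cells made up 0.461% of microglia-like cells at S3 and 13.7% at D3, and without them the log2 ratio was 0.31. In cells of 8000 to 20000 UMIs it was 0.20, a window chosen after the data were seen. Markers of infiltrating macrophages, all 6 of which were detected in both groups, summed to 846 CPM at S3 and 1822 CPM at D3 in the microglia-like cells, and genes of the dissociation stress list to 25750 and 13350 CPM. By depth those infiltrating markers were at 856 CPM at S3 and 735 CPM at D3 in cells of 4000 to 8000 UMIs, 872 and 692 CPM in cells of 8000 to 20000 UMIs, and 778 and 2493 CPM in deeper cells. Their part in the difference was not tested.

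Among other lists in microglia-like cells, 11 of 14 glycolysis genes were at least 1.5-fold higher at D3 and 1 lower (median log2 ratio 1.03), with Pkm at 1.52, Ldha, lactate dehydrogenase, at 1.51, Gapdh at 1.44 and Aldoa at 1.12. Of 77 genes of the mitochondrial ribosome 12 were higher and 0 lower (0.27). The 13 mitochondrially encoded subunits had a median of 0.13 with 2 lower, while their summed share was 3.59% of UMIs at S3 and 4.41% at D3. Those with most UMIs were mt-Co1 at 0.51, mt-Co3 at 0.40, mt-Co2 at 0.39 and mt-Atp6 at 0.37. The assembly factors (median 0.05, 2 of 41 higher and 4 lower), the tricarboxylic acid cycle (0.05, with Mdh2 at 0.54 and Idh2 at -0.65) and the regulators of mitochondrial biogenesis (-0.21, with Gabpa at -0.55) had medians nearer to 0 than the subunits or below it.

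Mature neutrophil-like cells held 0.888% (0.875 to 0.900) in the S3 brain and 1.09% (1.08 to 1.11) in the D3 brain, a log2 ratio of 0.30 (0.27 to 0.33). Of 76 members 18 (23.7%) were at least 1.5-fold higher, beside 14.8% of the 5656 genes tested, and 1 was lower, beside 11.2%. In cells thinned to 2000 UMIs 5 of 26 were higher (19.2%, beside 14.6% of genes). Atp5g1 was at 32.1 CPM at S3 and 85.0 CPM at D3 (1.40; 0.99 to 1.83), Ndufa11 at 17.4 and 43.0 CPM (1.30), Ndufc1 at 22.4 and 49.6 CPM (1.14), Ndufc2 at 27.5 and 58.8 CPM (1.09) and Cox7b at 73.8 and 145 CPM (0.97). Ndufa3 was the member lower, with 163 and 99.2 CPM (-0.71; -0.98 to -0.45). Below the median member were also Sdhd (-0.26), Atp5e (-0.07), Cox7c (-0.04) and Ndufs8 (-0.02), whose intervals held 0. The difference was largest in the shallowest cells. Cells under 4000 UMIs held 0.921% at S3 and 1.41% at D3, cells of 4000 to 8000 UMIs 0.756% and 0.825%, and cells of 8000 to 20000 UMIs 0.915% and 0.918%. Microglia markers summed to 443 CPM at S3 and 605 CPM at D3 in mature neutrophil-like cells, found in 45.8% and 67.4% of them, whereas infiltrating macrophage markers, of which 1 of 6 was at 0 at S3, summed to 2175 and 1142 CPM. Their part was not tested.

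In the other classes of the brain the summed ratio was small. It was 0.15 (0.12 to 0.18) in immature neutrophil-like cells, 0.13 (0.10 to 0.15) in T cell-like cells and 0.05 (0.01 to 0.10) in B cell-like cells. It was 0.03 in Ly6C low monocyte-like, 0.02 in NK/ILC1-like, -0.01 in Ly6C hi monocyte-like and -0.05 in plasmacytoid DC-like cells, with intervals that held 0. It was -0.03 in both border macrophage-like (-0.05 to -0.00) and cDC2-like cells (-0.05 to -0.01). Glycolysis genes nevertheless had positive medians in border macrophage-like (0.54), Ly6C hi monocyte-like (0.44) and cDC2-like cells (0.38).

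**Figure D3:**
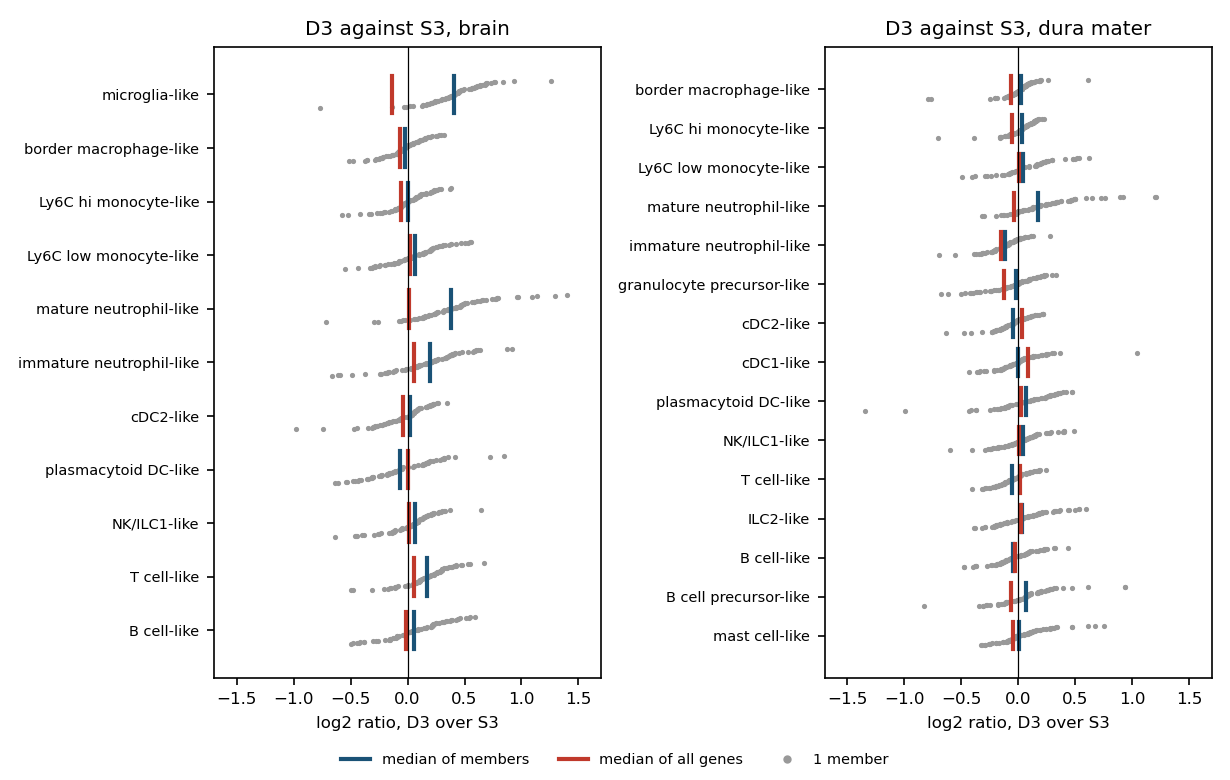
Log2 ratio of D3 over S3 (horizontal axis) of each tested member (grey points) by immune class in the brain (left) and the dura mater (right), with the median of the members (blue bar) and of all genes tested (red bar). The median of the members lay farthest from 0 in microglia-like (0.41) and mature neutrophil-like cells (0.38) of the brain, while every dura mater median lay between -0.11 and 0.17.

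Single members had ratios of the same sign in many classes of the brain, lymphoid ones included. Cox5a was higher at D3 in 10 of 11 classes, with a median log2 ratio of 0.37, Ndufb9 in 10 (0.34) and Ndufab1 in 9 (0.32). Ndufa3 was lower in 10 of 11 classes (median -0.50, from -0.74 to 0.13), Atp5k, the e subunit of ATP synthase, in 9 (-0.47), Ndufa1 in 9 (-0.30), Atp5e in 10 (-0.28) and Cox7c in 10 (-0.15). Higher in all 11 were Atp5j, Cox4i1, Ndufs7 and Ndufa8, which is 5.97% of the 67 members tested in every class, and 0 were lower in all. Of the 1407 genes tested in every class 6.97% were higher and 2.99% lower in all 11, so that the members were close to the background. For these members lower in 9 or 10 classes the median annotated transcript was 433 bases for Ndufa3, 321.5 for Atp5k, 419 for Ndufa1, 421 for Atp5e and 540 for Cox7c. Atp5l and Cox6c, also lower in 9 classes, have 544 and 606 bases. Ndufb2, lower in 8 classes, has 2413 bases, and Ndufa4, with 460, was higher in 9. Over 66 members the Spearman correlation of transcript length with the median ratio was 0.39, and over 1389 genes it was -0.20, where all points share the same libraries. The 225 genes with transcripts under 700 bases had a median ratio of 0.055 in the brain. Over 62 members in the dura mater the correlation was -0.25. All cells of a group come from 1 library, so a library effect and the injury cannot be told apart in these ratios. In B cell-like cells of the brain, which should lack them, the infiltrating macrophage markers were found in 12.4% of cells at S3 and 66.2% at D3 (25.8 and 248 CPM), at median depths of 4724 and 3474 UMIs.

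In the dura mater the members differed little between S3 and D3. Border macrophage-like cells, with 420 and 616 cells, held 1.43% (1.42 to 1.44) at S3 and 1.46% (1.46 to 1.47) at D3, a log2 ratio of 0.04 (0.02 to 0.05), which became -0.01 without cycling cells. Of 80 members 1 (1.25%) was at least 1.5-fold higher, beside 2.57% of the 10192 genes tested, and 2 (2.50%) were lower, beside 5.75%. The member higher was Cox7a1 (3.28 and 5.09 CPM), whose interval held 0, and the members lower were Atp5s (6.93 and 4.07 CPM) and Cox6a2 (5.65 and 3.26 CPM, from 31 and 32 UMIs). Of the members with at least 100 UMIs, Uqcrh (0.20), Ndufb2 (0.19), Ndufa1 (0.19) and Ndufs1 (0.18) were among those furthest up, and Ndufv1 (-0.25), Ndufc2 (-0.20), Ndufs3 (-0.20), Uqcrc1 (-0.19) and Ndufs6 (-0.13) were furthest down.

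Over the 15 dura mater classes the summed ratio ran from -0.08 (-0.09 to -0.06) in immature neutrophil-like cells to 0.11 (0.08 to 0.14) in mature neutrophil-like cells. It was 0.04 in Ly6C hi monocyte-like, 0.04 in mast cell-like, 0.10 in plasmacytoid DC-like, -0.04 in T cell-like and -0.07 in cDC2-like cells. None of the 63 members tested in every class was higher in all 15 or lower in all 15, and among the 1532 genes tested in all 15 these counts were 2 and 4. Ndufa8 had the highest median ratio (0.15) of the members and was higher in 10 of 15 classes.

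Infiltrating macrophage-like cells, defined by markers such as Arg1, Gpnmb and Spp1, were almost all from the D3 brain, which held 1181 of the 1189 cells of the gate. Their summed OXPHOS level was 1.89% (1.88 to 1.89), compared with 1.37% (1.35 to 1.38) in 166 border macrophage-like cells of the S3 brain, a log2 ratio of 0.46 (0.45 to 0.48). Of 82 members 31 (37.8%) were at least 1.5-fold higher, beside 13.8% of the 10306 genes tested, and 2 (2.44%) were lower, beside 39%. In cells thinned to 2000 UMIs 24 of 72 members were higher (33.3%), close to the 30.1% of 1841 genes. The median member ratio was 0.48 and that of all genes -0.35. The complexes had similar log2 ratios, 0.43 for I, 0.46 for II, 0.42 for III, 0.47 for IV and 0.52 for V. Against border macrophage-like cells of the same D3 brain library the log2 ratio was 0.49 (0.47 to 0.51), so the difference was as large within 1 library. Infiltrating cells were deeper, with a median of 22670 UMIs against 11250 in border cells of the S3 brain, and in cells of 8000 to 20000 UMIs the ratio was 0.37. Dissociation stress genes summed to 7568 CPM in infiltrating and 22120 CPM in these border cells, and their part was not tested.

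Among members with at least 50 UMIs in both groups, those furthest above the median included Ndufb6, an accessory subunit of complex I, with 52.6 CPM in border and 121 CPM in infiltrating cells (1.19; 0.93 to 1.48), and Sdhb with 79.9 and 176 CPM (1.13; 0.92 to 1.37). Cox5a was at 216 and 407 CPM (0.91; 0.78 to 1.05), and Cox4i1 at 578 and 933 CPM (0.69; 0.61 to 0.77). Below were Cox7a2l, with 336 and 239 CPM (-0.49; -0.60 to -0.38), Ndufa4, with 263 and 226 CPM (-0.22; -0.34 to -0.09), and Ndufs1, with 30.0 and 26.7 CPM, whose interval held 0. Of the members that were lower, Atp5s had 14 UMIs in border cells and Cox6b2 12, and the interval of Cox6b2 held 0.

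**Figure D4:**
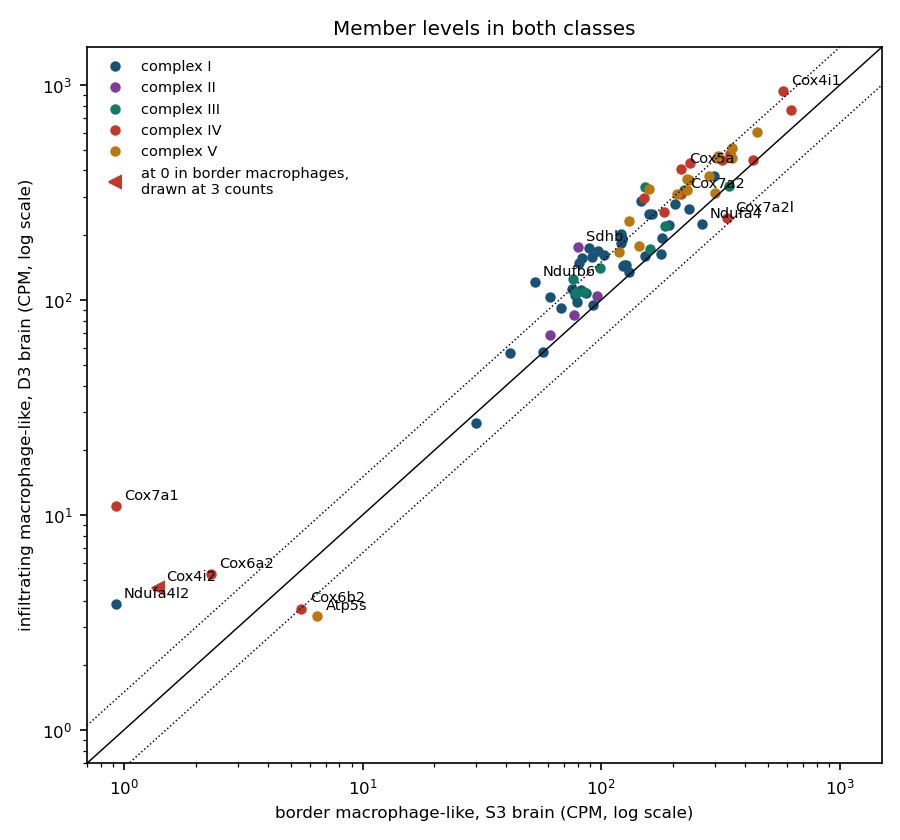
Level of each member (CPM, log scale on both axes) in border macrophage-like cells of the S3 brain and infiltrating macrophage-like cells of the D3 brain, coloured by complex. The solid line marks equal levels and dotted lines a 1.5-fold difference. Most members lie above the solid line, Cox7a2l lies below it, and Cox7a1, Cox4i2 and Ndufa4l2 lie far above it at levels near 10 CPM or less.

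The mitochondrially encoded subunits went the other way in this comparison. All 13 were lower in infiltrating than in border cells, 6 of them at least 1.5-fold, with a median log2 ratio of -0.51, and mt-Atp6 was at -0.61. Glycolysis genes were higher in 12 of 14 and lower in 1 (median 2.46), with Pgam1 at 3.23, Pkm at 3.00, Aldoa at 2.69 and Gapdh at 2.61. Of 8 genes of hypoxia and mitophagy 5 were higher and 1 lower (1.61), with Hilpda, a lipid droplet protein induced by hypoxia, at 4.4 and Bnip3, a mitophagy receptor, at 2.49. Genes of the mitochondrial ribosome had a median of 0.43 with 21 of 77 higher and 1 lower. The tricarboxylic acid cycle was mixed (median 0.03), with Mdh2 at 0.80 and Idh2 at -0.92, and of 9 biogenesis regulators 0 were higher and 4 lower (-0.52).

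Ly6C hi monocyte-like cells of the same D3 brain library were nearer in level. They held 2.0% (1.99 to 2.01), and the infiltrating cells were at a log2 ratio of -0.08 (-0.09 to -0.08) to them, with 8 of 82 members (9.76%) at least 1.5-fold higher, beside 18.8% of 10357 genes, and 7 (8.54%) lower, beside 20.1%. Both shares lay below the background of all genes. Of the Ly6C hi monocyte-like cells 13.7% carried proliferation markers and of the infiltrating cells 1.19%, and without cycling cells the ratio turned to 0.0093. Lower in infiltrating cells were Cox7a2l (491 CPM in monocytes, 239 CPM in infiltrating cells, -1.04), Uqcrh (585 and 339 CPM, -0.79), Uqcrfs1, the Rieske iron-sulfur protein (186 and 108 CPM, -0.78), and Ndufa6 (269 and 163 CPM, -0.72). Higher was Ndufv3 (110 and 195 CPM, 0.83). Cox6b2 was at 13.5 CPM in monocytes and 3.67 CPM in infiltrating cells (-1.88). Microglia-like cells of this library were below the infiltrating cells by a log2 ratio of 0.27 (0.26 to 0.28).

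The alternative forms of complex IV subunits were high in few classes. Cox6a2, known as the heart and muscle form, was measured in plasmacytoid DC-like cells at 1736 CPM (1584 to 1898) in the S3 brain, 1789 CPM (1623 to 1968) in the D3 brain, 1525 CPM (1432 to 1624) in the S3 dura mater and 1838 CPM (1681 to 2005) in the D3 dura mater. It was detected in 19 of 20, 21 of 21, 42 of 43 and 20 of 20 of these cells. The intervals of the S3 brain, D3 brain and D3 dura mater overlapped each other, and that of the S3 dura mater lay below that of the D3 dura mater. The ubiquitous form Cox6a1 had 252, 164, 232 and 261 CPM in the same cells, within the range of the other classes, so Cox6a2 made up 87.3%, 91.6%, 86.8% and 87.6% of the UMIs of the pair. Cox6a2 supplied 23.0 to 26.7% of the complex IV UMIs of plasmacytoid DC-like cells, and without it complex IV was at 0.490 to 0.526% of their UMIs. The highest level in any other class was 35.5 CPM in B cell precursor-like cells of the D3 dura mater, from 10 UMIs in 3 of 25 cells. NK/ILC1-like cells had 14.96, 23.7 and 10.5 CPM in the S3 brain, D3 brain and S3 dura mater, in 4.12 to 6.84% of cells, and 0 UMIs in the D3 dura mater. Cox6a2 was not used in the gate, and it was among the 10 leading genes of the class.

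Cox6b2, the testis form of a complex IV subunit, was highest in granulocyte precursor-like cells in the dura mater and in cDC2-like cells in the brain. It was measured at 36.4 and 18.4 CPM in cDC2-like cells of the S3 and D3 brain and at 34.8 and 22.3 CPM in those of the S3 and D3 dura mater, in 18.5 to 43.7% of cells. Granulocyte precursor-like cells had 40.7 and 37.1 CPM in the S3 and D3 dura mater, and Ly6C hi monocyte-like cells 16.9, 13.5, 26.3 and 16.1 CPM in the S3 brain, D3 brain, S3 dura mater and D3 dura mater. Mast cell-like cells had 13.6 and 28.6 CPM and B cell precursor-like cells 15.6 and 28.4 CPM in the S3 and D3 dura mater. At D3 both were above the cDC2-like cells of that library. Other DCs and monocytes had few UMIs, 3 to 5 in cDC1-like, 0 to 8 in plasmacytoid DC-like and 0 to 3 in Ly6C low monocyte-like cells. The 8 were among only 645734 UMIs of 43 cells of the S3 dura mater, so few UMIs need not mean a low level. T cell-like cells, as cells of another lineage, had at most 1.47 CPM, and mature neutrophil-like cells at most 2.73 CPM. The D3 cDC2-like cells were below the S3 cells in both tissues, with intervals that overlapped in the dura mater. Cox6b2 made up 8.96% of its pair with Cox6b1 in cDC2-like cells of the S3 brain and 9.83% in mast cell-like cells of the D3 dura mater, the highest shares found.

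Cox7a1, the heart and muscle form of its subunit, had 11.0 CPM (9.77 to 12.3) in infiltrating macrophage-like cells, from 308 UMIs in 250 of 1181 cells (21.2%) with at most 5 in a cell. Border macrophage-like cells had 0.923 CPM in the S3 brain, from 2 UMIs, so that the log2 ratio of 3.25 had an interval that excluded 0. In the dura mater border cells had 3.28 CPM at S3 and 5.09 CPM at D3, microglia-like cells of the D3 brain had 2.65 CPM, and Ly6C hi monocyte-like cells of the D3 brain had 0.675 CPM. Cox7a2 was at 310 CPM in the infiltrating cells, so Cox7a1 was 3.42% of the pair. B cell precursor-like cells of the D3 dura mater had a higher level and share, 21.3 CPM and 3.87% of the pair, from 6 UMIs in 3 of 25 cells.

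Cox4i2 had 129 UMIs in 77 of the infiltrating cells (6.52%; 4.59 CPM, 3.83 to 5.46) and 0 UMIs in border macrophage-like cells of the S3 brain, which at a floor of 3 counts for the group is at least 3.32-fold higher. Microglia-like cells of the D3 brain had 22 UMIs in 16 cells (2.25 CPM), and those of the S3 brain 3 UMIs. The 4 UMIs in immature neutrophil-like cells of the S3 brain came from 1 cell. Ly6C hi monocyte-like cells of the D3 brain had 1 UMI of Cox4i2. Ndufa4l2, a paralog of Ndufa4 known from hypoxic cells and pericytes, is different in kind: its 108 UMIs in infiltrating cells came from 9 of 1181 cells, with 40 in 1 cell, so its class level rests on very few cells. In the same way 59 UMIs of Cox6a2 in immature neutrophil-like cells of the S3 dura mater came from 8 of 316 cells. No other class and library held more than 12 UMIs of Ndufa4l2.

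**Figure D5:**
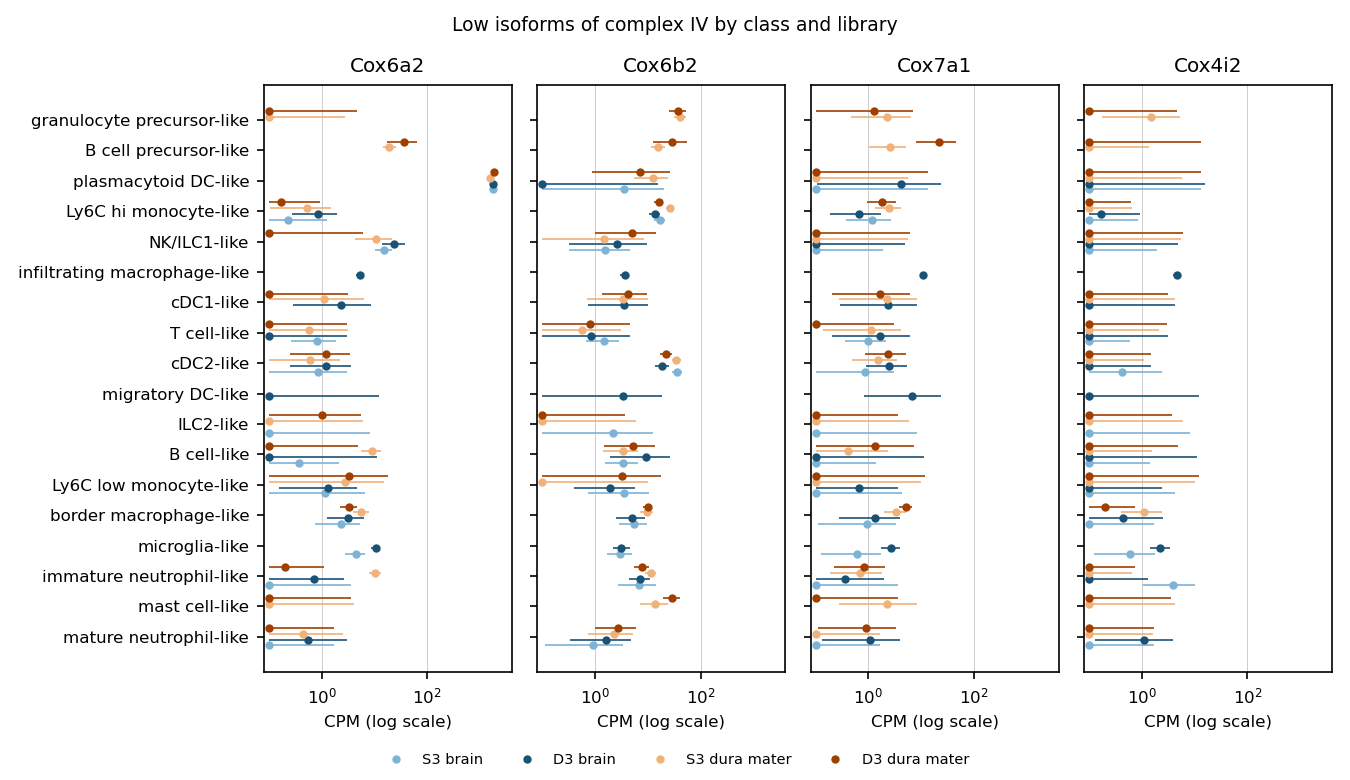
Level (CPM, log scale, values at 0 drawn at the left edge) of Cox6a2, Cox6b2, Cox7a1 and Cox4i2 by immune class and library, with counting intervals as bars. Cox6a2 stands far above the other classes in plasmacytoid DC-like cells of all 4 libraries (1525 to 1838 CPM), and Cox7a1 and Cox4i2 have narrow intervals in infiltrating macrophage-like cells (11.0 and 4.59 CPM).

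The c subunit of ATP synthase is encoded by Atp5g1, Atp5g2 and Atp5g3, which give the same mature protein. Atp5g2 was the largest part of the 3 in each class and library, from 39.5% in immature neutrophil-like cells of the S3 brain to 66.8% in migratory DC-like cells of the D3 brain. Atp5g1 made up 34.5% in infiltrating macrophage-like cells, compared with 27.3% in border cells of the S3 brain and 27.6% in Ly6C hi monocyte-like cells of the D3 brain. It was also high in granulocyte precursor-like cells (36.7% and 36.0% in the S3 and D3 dura mater) and in mast cell-like cells (31.8% and 34.5% in the same libraries). Atp5g3 made up 36.3% in immature neutrophil-like cells of the S3 brain and 14.2% in cDC2-like cells of the same library. The Ndufa4 level ranged from 74.1 CPM in mature neutrophil-like cells of the S3 dura mater to 810 CPM in granulocyte precursor-like cells of that library.

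Between the S3 tissues the members were lower in the brain than in the dura mater in most classes, as was the median of all genes. B cell-like cells had the largest gap, with 1.39% (1.37 to 1.40) in 491 cells of the brain and 1.63% (1.61 to 1.64) in 368 cells of the dura mater, a log2 ratio of -0.23 (-0.25 to -0.21). Of 76 members 0 were at least 1.5-fold higher in the brain, beside 4.79% of the 7394 genes tested, and 7 (9.21%) were lower, beside 18.8%. The median of all genes was -0.23 and that of the members -0.30. Relative to that median of all genes the summed ratio was -0.0048 and 0 members were lower, and 0 were lower with mitochondrial and ribosomal genes out of the total. Ndufc2 (76.7 CPM in brain, 124 CPM in dura mater, -0.69), Uqcr11 (90.4 and 144 CPM, -0.67), Atp5j (191 and 301 CPM, -0.66), Sdhd (63.4 and 99.1 CPM, -0.64) and Sdhb (83.9 and 128 CPM, -0.61) were furthest down. Cox7a2l (476 and 403 CPM, 0.24), Ndufa6 (0.23), Uqcrh (0.20), Sdha (0.16) and Ndufv3 (0.14) were furthest up. Ribosomal protein genes made up 27.9% of UMIs in brain and 22.5% in dura mater B cell-like cells, dissociation stress genes 9712 and 4952 CPM, and erythroid markers 3.80 and 1661 CPM. Their part was not tested.

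The log2 ratio of brain over dura mater was -0.15 in immature neutrophil-like, -0.13 in cDC2-like, -0.11 in each of T cell-, NK/ILC1- and Ly6C low monocyte-like, -0.09 in Ly6C hi monocyte-like and -0.06 in border macrophage-like cells. In the same order of classes the median of all genes was -0.04, -0.09, -0.20, -0.09, -0.07, -0.10 and -0.05. For T cell-like cells the summed ratio turned to 0.06 when mitochondrial and ribosomal genes were left out of the total. It turned to 0.09 relative to the median of all genes, and for Ly6C hi monocyte-like cells to 0.01 relative to that median. The summed ratio was 0.20 (0.17 to 0.23) in mature neutrophil-like cells, the 1 class with an interval above 0, where the median of all genes was 0.12. The intervals of plasmacytoid DC- and ILC2-like cells held 0. Cox7a2l was higher in the brain in 10 of 11 classes (median 0.24), and Ndufc1 (-0.34) and Cox7a2 were lower in all 11. These 2 are 2.74% of the 73 members tested in every class, and 32 of 1885 genes were lower in all 11.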

How the data were processed

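Reads of the 4 libraries were mapped to mm10 with Cell Ranger 3.1.0 and normalized with Seurat 3.1.0 per the labels' processing notes, and the values the authors deposited are the natural log of 1 plus the count of UMIs scaled to 10000 in each cell. Each value turned back into a whole multiple of the smallest of its cell within 1e-06 (100% of values), which was taken as 1 UMI. Genes seen in fewer than 3 cells of a library are not listed there and were taken as 0.

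The cell filter required more than 1000 and fewer than 6000 genes, and a mitochondrial share of no more than 7%. Scrublet in scanpy 1.11.5, run without the members, marked at most 3 cells of a library (under 0.5%), so the highest scores at 0.8% for each 1000 barcodes were removed. Each class score is the mean over its markers of the level divided by the 90th percentile of nonzero values, at most 1. A class needed at least 3 detected markers, a score of 25% and a lead of 10% over the next class, and lying near a cut means a lead under 20%. Sums of UMIs were made per class in each library where 20 or more cells were present. Exact Poisson intervals were used for CPM and ratios, and Clopper-Pearson intervals for shares. Medians and counts past 1.5-fold used genes with 50 or more UMIs over the compared groups and a pseudocount of 0.5, and setting genes at 0 to their bound left every median the same.

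Named were the members of isoform sets, in each main comparison up to 5 members in each direction furthest from the member median with at least 100 UMIs, the highest and lowest of each complex, the 5 with the largest range over classes, and up to 4 examples of the other lists with most UMIs. Further members were named for repeated direction or counts of 5 or fewer, after their values were seen. The members, lists and markers were chosen with earlier results of these data known, and the gate thresholds were set with the cells in view. Cycling cells have at least 3 proliferation markers. Positions and transcript lengths are from GENCODE vM21 on GRCm38, and 82 of 83 members matched by symbol. Promoters are from RefSeq, with the first entry of each symbol. The log2 ratio, its interval and the 1.5-fold call were tested on simulated Poisson counts for microglia-like cells of the brain. The gate, the doublet removal and the thinning were not simulated. Python 3.11.15, numpy 2.4.6, scipy 1.17.1, pandas 2.3.3 and matplotlib 3.10.9 were used. A result for a member is not reported here.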

Additional observations from a re-analysis of the deposited data

Results flagged for a closer look

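In 3 classes the summed log2 ratio of D3 over S3 had an interval above 0 in one tissue and below 0 in the other. The difference between tissues was not tested, since each tissue and condition has 1 library. Border macrophage-like cells had -0.025 (-0.049 to -0.0022) in the brain and 0.036 (0.023 to 0.049) in the dura mater. Immature neutrophil-like cells had 0.15 (0.12 to 0.18) in the brain and -0.076 (-0.092 to -0.060) in the dura mater. T cell-like cells had 0.13 (0.10 to 0.15) in the brain and -0.039 (-0.064 to -0.014) in the dura mater. The signs depended on the processing: border macrophage-like cells of the brain turned to 0.025 without the filter on cells and to 0.043 relative to the median of all genes, those of the dura mater to -0.012 without cycling cells and to -0.053 in cells of 8000 to 20000 UMIs, and immature neutrophil-like cells of the dura mater to 0.075 relative to the median of all genes.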

How the results depend on the processing

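No paired analysis was possible because the labels hold no replicate numbers and each condition has 1 library. Values are log2 ratios of the summed members, D3 over S3 unless another pair is named or given next. B cell-like cells stand for S3 brain over S3 dura mater, and infiltrating cells for infiltrating over border macrophage-like cells of the S3 brain. Precursors and immature neutrophils, where no library is named, stand for granulocyte precursor- and immature neutrophil-like over mature neutrophil-like cells of the S3 dura mater. Without the filter on cells, microglia-like cells were at 0.56, mature neutrophil-like cells of the brain at 0.23, border macrophage-like cells of the dura mater at 0.094 and of the brain at 0.025 (reversed), B cell-like cells of brain over dura mater at -0.19, and precursors over mature neutrophils at 1.80, with the infiltrating level at 1.87%. With likely doublets kept, microglia-like cells were at 0.40, precursors at 1.63 and immature over mature neutrophils at 0.55, and the levels of mature neutrophil-like (S3 dura mater) and infiltrating cells at 0.804% and 1.88%. With mitochondrial and ribosomal genes out of the total, microglia-like cells were at 0.50, B cell-like cells at -0.12, infiltrating over border cells at 0.42, precursors at 2.15 and T cell-like cells of brain over dura mater at 0.065 (reversed), and the same levels at 0.806% and 2.22%.

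Thinned to 2000 UMIs per cell, microglia-like cells were at 0.29, mature neutrophil-like cells of the brain at 0.43, border cells of the dura mater at 0.0024, B cell-like cells at -0.19, infiltrating cells at 0.41, precursors at 1.80, immature neutrophils at 0.56 and the levels at 0.750% and 1.84%. Reversed by thinning were Ly6C low monocyte-like (-0.039), B cell precursor-like (-0.088) and mast cell-like cells (-0.057) of the dura mater and immature over mature neutrophils of the D3 brain (-0.10). Without cycling cells, microglia-like cells were at 0.31, B cell-like cells at -0.16 and immature neutrophils at 0.37. Reversed were border cells of the dura mater (-0.012), cDC2-like cells of the brain (0.0051), infiltrating over Ly6C hi cells (0.0093) and immature over mature neutrophils of the D3 brain (-0.095), and too few precursors were left. Relative to the median of all genes, microglia-like cells were at 0.58, border cells of the dura mater at 0.10, B cell-like cells at -0.0048, infiltrating cells at 0.81, precursors at 1.45 and immature neutrophils at 0.56. Reversed were border (0.043) and cDC2-like cells (0.0089) of the brain, immature neutrophil-like cells of the dura mater (0.075), and Ly6C hi monocyte- (0.0096) and T cell-like cells (0.093) of brain over dura mater. With Ndufa4 and Ndufa4l2 counted in complex IV, its infiltrating level was 0.527%. In cells of 8000 to 20000 UMIs, a setting chosen after seeing the data, microglia-like cells were at 0.20, mature neutrophil-like cells of the brain at 0.0042, border cells of the dura mater at -0.053 (reversed), infiltrating cells at 0.37, B cell-like cells at -0.19 and immature neutrophils at 0.23.

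The count of members at least 1.5-fold higher in microglia-like cells was 35 without the filter, 32 relative to the median of all genes, 5 without cycling cells and 2 when thinned, beside 19. In mature neutrophil-like cells of the brain it was 5 when thinned and 10 with a minimum of 200 UMIs, beside 18. Members lower in B cell-like cells of the brain than the dura mater numbered 2 without the filter, 2 when thinned, 1 without cycling cells and 0 under both other scalings, beside 7. Infiltrating over border cells had 59 higher relative to the median of all genes, beside 31. When thinned, 8 of the 10 members still tested were higher in precursors, beside 72 of 77, and 8 of 24 in immature neutrophils, beside 49 of 78, which became 32 of 76 without cycling cells. The cause of these shifts was not tested. With 1 library for each condition, none of these settings shows the spread between mice.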
